A study of Mus musculus with 12 samples.

Results

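The miR-297, miR-466, miR-467 and miR-669 families, which take their collective name from the large microRNA (miRNA) cluster in an intron of the mouse gene Sfmbt2, were followed in adult mouse liver over 2 days. The members were every array entry named mmu-miR-297, mmu-miR-466, mmu-miR-467 or mmu-miR-669, whatever the letter, arm or star that follows. The rule uses names only, although the families were picked for study with earlier results of these data known. This gave 39 of the 650 entries on the array: 3 miR-297, 14 miR-466, 10 miR-467 and 12 miR-669 entries, carried by 106 probes. The array holds 611 mouse entries and 39 herpesvirus entries.

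Adult mice of a strain and age that the labels do not name ate and drank freely under lights that were on for 12 h and off for 12 h. Zeitgeber time (ZT) counts hours from a lights-on, and collections began at ZT18 and ended at ZT62, 4 h apart. At each collection RNA from 2 livers was pooled and hybridised in 1 colour (Cy3) to 1 Agilent miRNA array, so every time had 1 pool and every pool 1 array. The 6 light arrays were those of ZT26, ZT30, ZT34, ZT50, ZT54 and ZT58, and the 6 dark arrays those of ZT18, ZT22, ZT38, ZT42, ZT46 and ZT62. All groups were untreated whole liver, so a member's value mixes hepatocytes with every other liver cell, and fewer cells of a type could not be told apart from less RNA per cell. The pools of a group came from different times, and p-values measure the spread between these pools, not between mice. The arrays lay on 2 slides, with the 8 arrays of ZT18 to ZT46 on slide 1 and the 4 arrays of ZT50 to ZT62 on slide 2.

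An miRNA is cut from a hairpin precursor, loaded into an Argonaute protein, and guides it to messenger RNAs that pair with the seed, bases 2 to 8 of the mature strand. Each hairpin can yield a strand from its 5′ arm (5p) and one from its 3′ arm (3p), and older names mark the less abundant strand with a star. The Sfmbt2 cluster is specific to rodents, is made of many near-identical hairpins in tandem, and is known for its expression in placenta, where it is imprinted and transcribed from the paternal allele, and in embryonic stem cells. Its mature strands are rich in repeats of U and G on the 5′ arms and of A and C on the 3′ arms.

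The RefSeq table used here (build GRCm38.p6) gave a mature strand for 5 of the 39 members, and they are shown because they include the most often detected member and both kinds of repeat. The seed is in capitals.
miR-467f: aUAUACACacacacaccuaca
miR-466i: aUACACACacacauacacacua
miR-467g: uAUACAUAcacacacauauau
miR-466j: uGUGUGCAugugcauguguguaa
miR-466k: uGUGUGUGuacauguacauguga
RefSeq lists the miR-466i strand as miR-466i-3p, the only arm it gives. The 5 strands carry 5 different seeds. miR-467f holds an unbroken run of 12 alternating A and C bases, miR-466i one of 11 and miR-467g one of 9, whereas the longest alternating U and G run is 7 bases in miR-466j and 9 in miR-466k. miR-467f and miR-466i share a stretch of 13 bases, and miR-466k shares 10 bases with the reverse complement of miR-467f. The letters ACACAC occur in 3 of these members and UGUGUG in the other two, read on the mature strand only. Among 201 other mouse entries with a RefSeq strand, ACACAC occurs in 3 (1.49%) and UGUGUG in 3 (1.49%). Whether near-copies bound to a member's probes was not tested.

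The name of the cluster held for most members and not for the most often detected one. RefSeq places 72 miRNA genes within the span of Sfmbt2 on chromosome 2, all 72 of them of the 4 families. For 29 members every listed hairpin gene lay there, for 3 (miR-297a*, miR-466f-3p and miR-466f-5p) some copies lay there and 1 lay elsewhere, for 5 the only listed gene lay elsewhere, and 2 (miR-466a-3p and miR-466a-5p) were not matched. The 5 members from elsewhere are those whose strands are printed above. miR-467f maps to chr11:69635419-69635439 on the minus strand, within the span of Fxr2, which encodes an RNA-binding protein of the fragile X family. miR-466i maps to chr13:17747552-17747573 on the plus strand, within Cdk13, a cyclin-dependent kinase gene. miR-467g maps to chr5:34732872-34732892 on the minus strand, within Grk4, a receptor kinase gene. miR-466j (chr10:60960802-60960824) and miR-466k (chr3:85467396-85467418), both on the plus strand, lie in no protein-coding gene of the table.

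Most of these miRNAs were not detected in liver at any time of day. The scanner software called an entry detected on an array where the total signal of at least 1 of its probes exceeded 3 times its error, a rule that matched all 7800 pairs of entry and array (0 disagreed). By this call 34 of the 39 members were detected on no array. Detection on at least 1 array was seen for 5 members (12.8%) against 214 of 611 mouse entries (35.0%). Detection on at least 6 arrays was seen for 1 member, miR-467f (2.56%), against 135 mouse entries (22.1%). No member was detected on all 12 arrays, while 109 mouse entries were (17.8%). Counted over entries and arrays, 14 of 468 member calls were positive (2.99%) against 22.9% of the calls of all mouse entries.

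Comparison lists placed these counts. All 6 entries of a hepatocyte list (miR-122, miR-192, miR-194, miR-148a, miR-101a and miR-22) were detected on 12 of 12 arrays, with the scaled signal of miR-122, the dominant liver miRNA, at a median of 31887 intensity units (lowest 29522, highest 33199). The miR-290 to miR-295 cluster, known from embryonic stem cells and placenta, had 1 of 14 entries detected, miR-290-5p, on 2 arrays. The miR-302 and miR-367 cluster of pluripotent cells had 0 of 8. Among the 39 herpesvirus entries, for which the labels name no infection, 9 were detected on at least 1 array (23.1%), 4 on at least 6 and 3 on all 12. The detection call alone was thus met more often by virus entries than by the members.

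**Figure D1:**
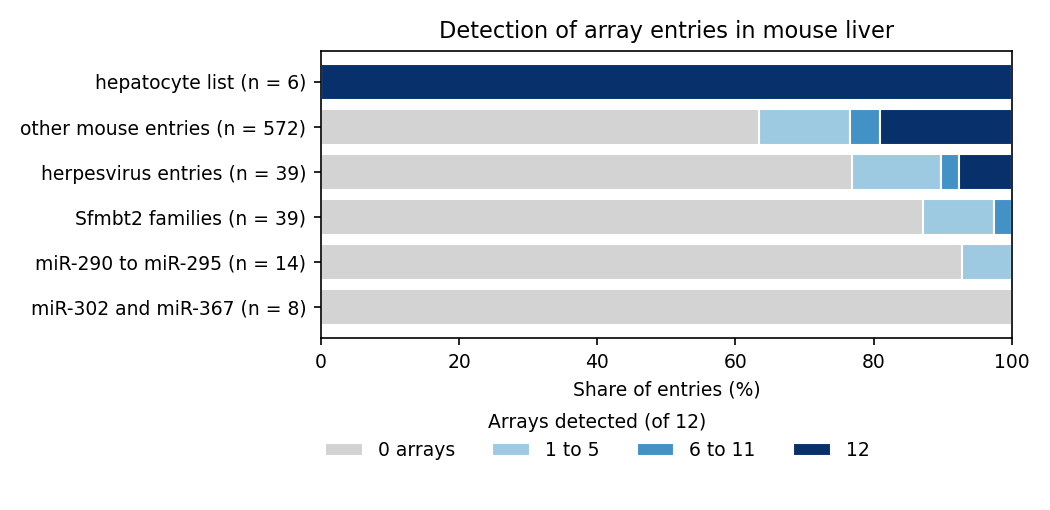
Share of entries (%, horizontal axis) detected on 0, 1 to 5, 6 to 11 or 12 of the 12 arrays, for 6 lists with their number of entries. The bar of the Sfmbt2 families is 87.2% undetected and has no part for 12 arrays, while the hepatocyte list is detected on 12 arrays throughout.

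By family, miR-297 (3 entries) and miR-669 (12 entries) had 0 detections on any array. miR-466 had 2 detected members of 14, each on 1 array. miR-467 had 3 of 10, with 12 of the 14 positive calls of all members. By place, the 29 members with genes inside Sfmbt2 alone gave 7 positive calls from 3 members, and the 5 members from elsewhere gave 6, all from miR-467f. The last call came from miR-466f-5p, which has copies in both.

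**Figure D2:**
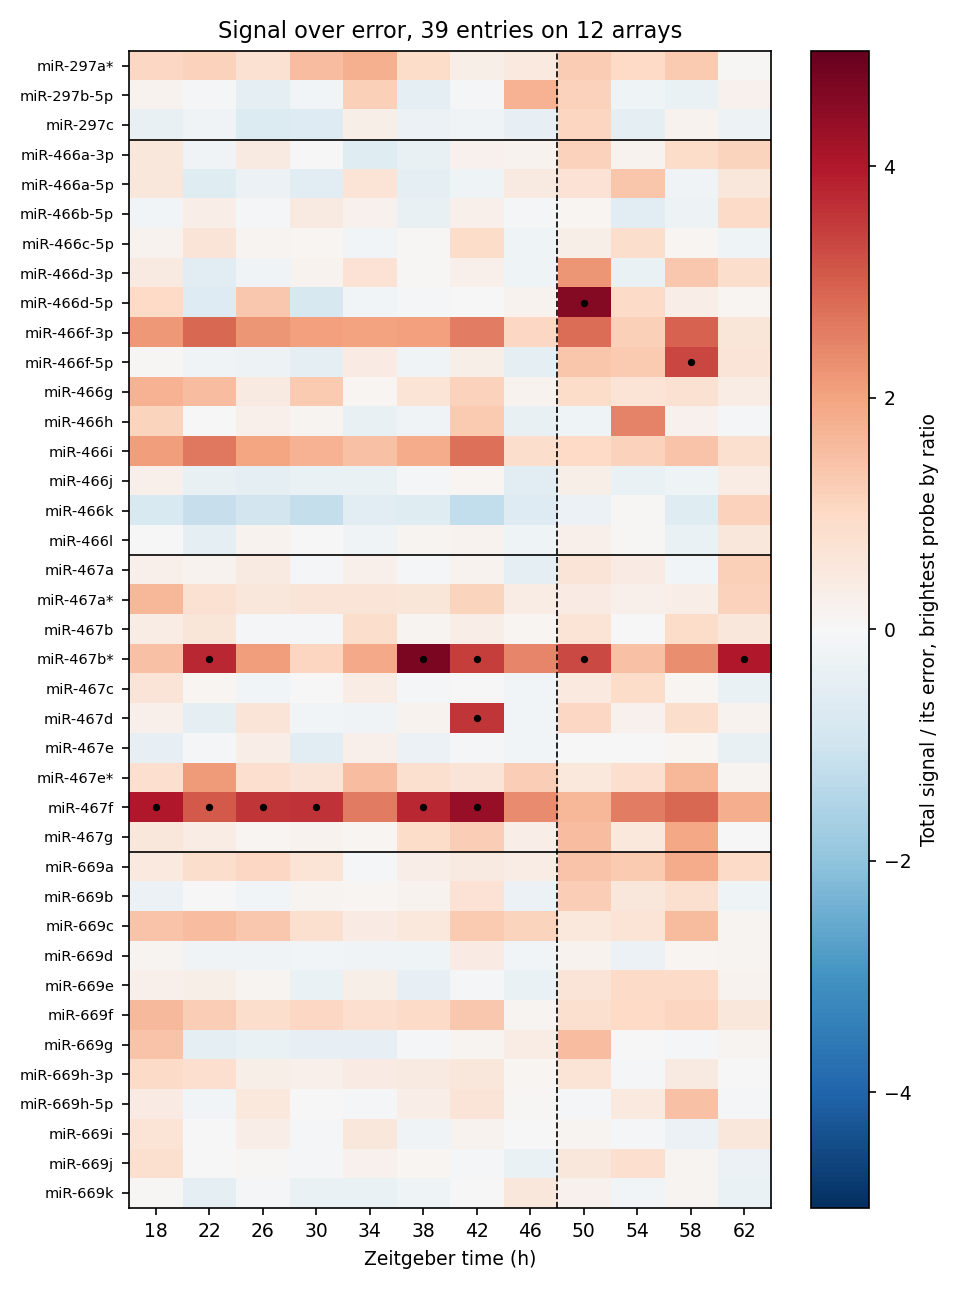
Ratio of total probe signal to its error (colour, for the probe with the highest ratio on that array) for 39 members (rows, grouped by family) on 12 arrays (columns, zeitgeber time in h). Black dots mark a detection call and the dashed line separates the slides; the dots of miR-467f stop at ZT42, whereas those of miR-467b* lie on both slides.

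miR-467f was the member seen most often, at a level just over the limit. The total signal of its brighter probe, in intensity units, was 10.6 at ZT18, 8.90 at ZT22, 9.20 at ZT26, 9.93 at ZT30, 9.44 at ZT34, 10.9 at ZT38, 11.9 at ZT42, 8.13 at ZT46, 9.21 at ZT50, 10.5 at ZT54, 10.4 at ZT58 and 6.27 at ZT62. The lowest value was at ZT62 (error 4.03) and the highest at ZT42 (error 2.72), both dark arrays, and no order of times is read from them. The light arrays, from 9.20 to 10.5, lay within the range of the dark arrays, from 6.27 to 11.9. Its ratio to the error was 4.02, 3.08, 3.57, 3.60, 2.59, 3.78, 4.37, 2.38, 1.66, 2.56, 2.87 and 1.56 in the same order, so ZT18, ZT22, ZT26, ZT30, ZT38 and ZT42 passed. All 6 of those arrays are on slide 1, and 0 of the 4 arrays of slide 2 passed. The dimmer probe passed on no array, with a highest ratio of 2.98 at ZT42.

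The signal of miR-467f hardly differed between the slides, while its error did. The median signal of the brighter probe was 9.68 on slide 1 and 9.78 on slide 2, and the median error was 2.82 and 4.07. The SD of the negative control spots, which carry no miRNA probe, lay between 2.81 and 3.47 on the 6 arrays with a detection and between 4.33 and 9.74 on the 6 without. The part of this spread in the detection calls was not tested. Of the probe's 116 spots over all arrays, 16 were well above background by the software, and on no array were more than 50% of them.

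**Figure D3:**
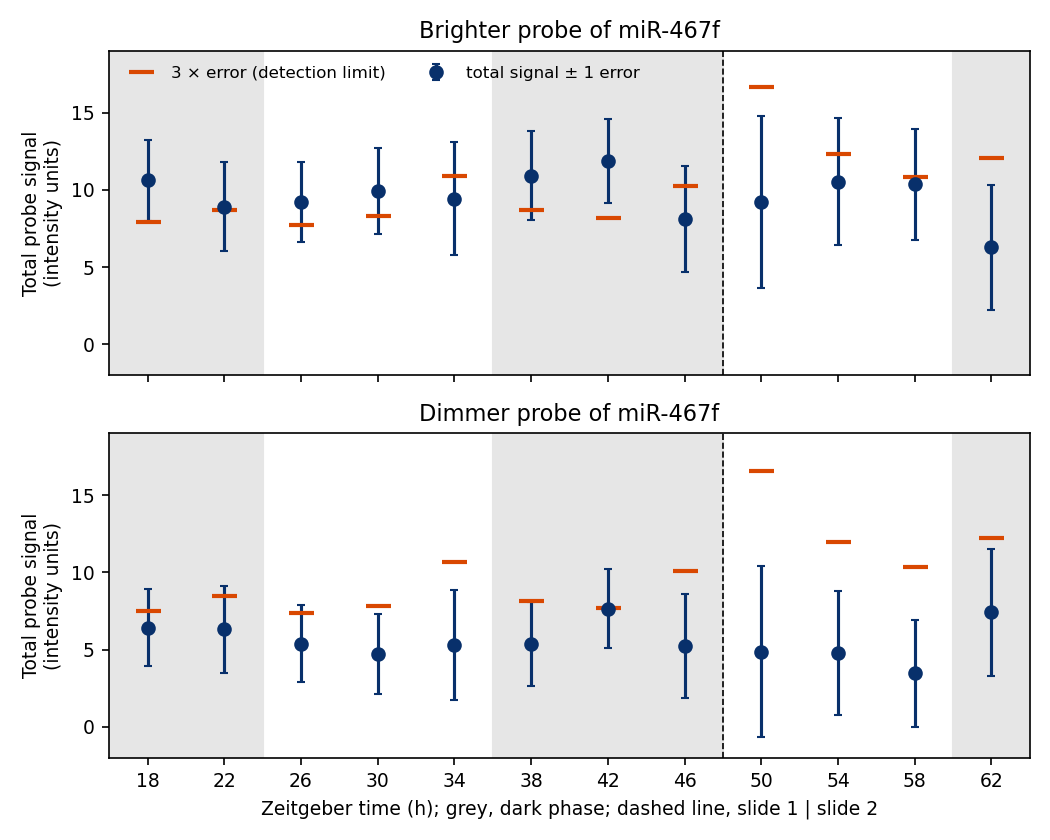
Total signal (points, intensity units, bars of 1 error as given by the scanner software) of both miR-467f probes on 12 arrays by zeitgeber time (h), with 3 times the error as a short line. The points of the brighter probe stay between 6.27 and 11.9, and lie below the line at ZT34 and ZT46 on slide 1 and at all 4 times on slide 2.

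All 24 mean signals of the 2 miR-467f probes on 12 arrays were above 0 after background subtraction, and all 24 were above the median of the negative controls of their array. The scaled signals of the brighter probe at clock times 24 h apart were 17.5 and 17.6 at ZT18 and ZT42, 13.0 and 13.5 at ZT22 and ZT46, 15.0 and 14.6 at ZT26 and ZT50, 15.8 and 15.6 at ZT30 and ZT54, 14.7 and 16.0 at ZT34 and ZT58, and 14.6 and 9.49 at ZT38 and ZT62. These values all lie under the floor of 22.2 units, and no order is read from them.

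miR-467b* was detected on 5 arrays, at ZT22, ZT38, ZT42, ZT50 and ZT62, and is described further because of its values, outside the rule for named members. The star in its name marks it as the strand once taken to be the less abundant of the miR-467b hairpin, whose gene lies inside Sfmbt2. All 48 mean signals of its 4 probes on 12 arrays were above 0, and 45 were above the median of the negative controls of their array. Scaled signals of its brightest probe were 6.10 at ZT18, 2.87 at ZT22, 4.65 at ZT26, 4.47 at ZT30, 5.64 at ZT34, 12.5 at ZT38, 13.3 at ZT42, 13.9 at ZT46, 31.4 at ZT50, 6.62 at ZT54, 11.5 at ZT58 and 24.5 at ZT62. Only ZT50 and ZT62 exceeded 22.2 units, the floor under which values of this scale have no order, so no order is read from the other 10 arrays.

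The probes of miR-467b* disagreed about which array was detected. At ZT38 3 of the 4 probes passed and at ZT62 2 did, whereas at ZT22, ZT42 and ZT50 1 probe passed. At ZT22 that probe had spots of 1.77, 2.56, 3.91, 39.0 and 51.5 intensity units, so 2 of its 5 spots carried the mean, and the brightest probe gave 2.87 there. The other strand of the hairpin, miR-467b, was detected on no array, with a highest ratio of 0.936.

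**Figure D4:**
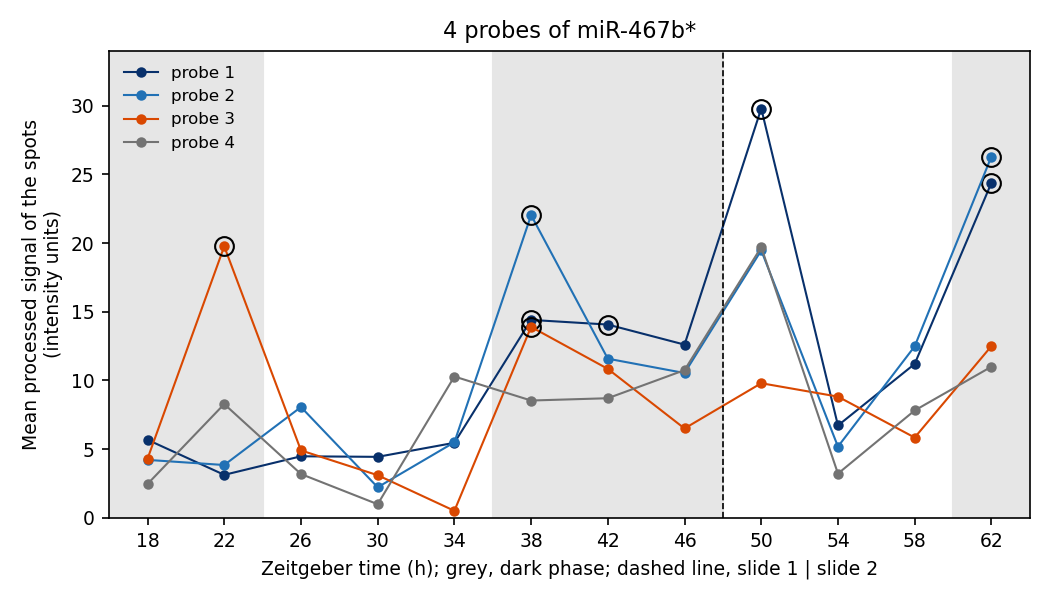
Mean background-subtracted signal of the spots (intensity units, outlier spots left out) of the 4 probes of miR-467b* on 12 arrays by zeitgeber time (h); open circles mark probes whose total signal passed 3 times its error. From ZT34 to ZT38 3 of the 4 probes rise. All 4 rise from ZT58 to ZT62 and also from ZT46 (dark, slide 1) to ZT50 (light, slide 2). At ZT22 1 probe lies at 19.8 while the others stay at or below 8.28. No order of times is read from these rises.

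Each of the other three detected members passed on 1 array through 1 of its 4 probes and through few spots. For miR-466d-5p the passing probe at ZT50 had spots of 0.782, 15.1, 38.8, 60.0 and 125 intensity units, and its 4 probes gave values above 0 in 10 of 48 cases. For miR-466f-5p at ZT58 the spots were -3.45, 2.05, 3.67, 38.1 and 61.9. For miR-467d at ZT42 they were -2.95, 0.331, 14.8, 17.4 and 52.4. In all 3 cases the spots of 1 probe, which share 1 sequence, spread widely, with the lowest near or below 0. ZT50, with the miR-466d-5p call, had the highest SD of negative controls, 9.74, and the part of this in the call was not tested.

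Among the 34 undetected members the ratio of signal to error never exceeded 2.96 (miR-466f-3p at ZT58). Their median ratio over the arrays lay between -0.63 for miR-466k and 2.12 for miR-466f-3p, and 31 of the 34 had a median under 1 (8 under 0, 23 from 0 to 1). The middle of these medians was 0.158, beside 0.204 in the 363 other mouse entries without a detection and -0.277 in the 30 such herpesvirus entries. miR-466i, whose strand shares 13 bases with miR-467f, had the next highest median after miR-466f-3p, 1.61, and a highest ratio of 2.75 at ZT42. Of the spots of these 34 members 34 of 7683 were well above background (0.443%), against 0.586% for other undetected mouse entries and 0.0617% for negative controls. On slide 1 the 3 shares were 0.156%, 0.239% and 0%, and on slide 2 they were 1.02%, 1.29% and 0.188%.

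The members did not all scatter alike around 0. The mean signal of a probe on an array was above 0 in 46.2% of the 1272 values of all 39 members. It was above 0 in 45.6% of the 1056 values of the 34 undetected members, and in 38.4% of the values of the 363 mouse entries outside the families without a detection. miR-466i and the 2 members most often detected, miR-467f and miR-467b*, were above 0 in 100% of values, and miR-467a*, miR-669c and miR-669f in 95.8%. At the other end, miR-466k was above 0 in 8.33% (2 of 24), miR-297b-5p in 10.4% and miR-466b-5p in 12.5%. Of the printed strands, miR-466j, with the U and G repeat, was above 0 in 20.8%, and miR-467g, with the A and C repeat, in 24 of 48 values.

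Among members whose name gives an arm or a star, the sign of the signal against 0 went with it. This split was made after the values were seen and was not tested. The 24 members with no arm in the name were above 0 in 44.2% of 672 values, ranging from 8.33% to 100%. The 7 members named -5p were above 0 in 21.2% of 288 values, ranging from 10.4% to 58.3% by member. The 8 members named -3p or with a star were above 0 in 73.7% of 312 values, ranging from 22.9% (miR-466d-3p) to 100% (miR-467b*). Against the negative control median of the array the shares were lower. They ranged by member from 4.17% to 25.0% for -5p names and from 12.5% to 93.8% for -3p or star names. With the detected members left out, the 5 remaining -5p members gave 21.4% and the 7 remaining -3p or star members 68.9%. Among undetected mouse entries outside the families the same 2 kinds of name gave 34.4% (42 entries) and 40.9% (128 entries). A star marks the less abundant strand and not an arm, so the second kind can mix both arms there. The gap outside the families is therefore not a like measure of an arm difference. Both arms under 1 hairpin name differed in the same way for miR-466f (5p 20.8%, 3p 81.3%), miR-466a (9 of 48 and 12 of 24 values) and miR-669h (7 of 24 and 18 of 24 values). So did the strands without and with a star of miR-467a (37.5% and 95.8%), miR-467b (45.8% and 100%) and miR-467e (16.7% and 83.3%). Those of miR-466d lay close together (20.8% and 22.9%). A name can pool copies: miR-467a has 10 listed genes, miR-466f has 3 inside Sfmbt2 and 1 elsewhere, and miR-466a was not matched. No RefSeq strand was matched for these pairs, and their base composition was not compared.

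**Figure D5:**
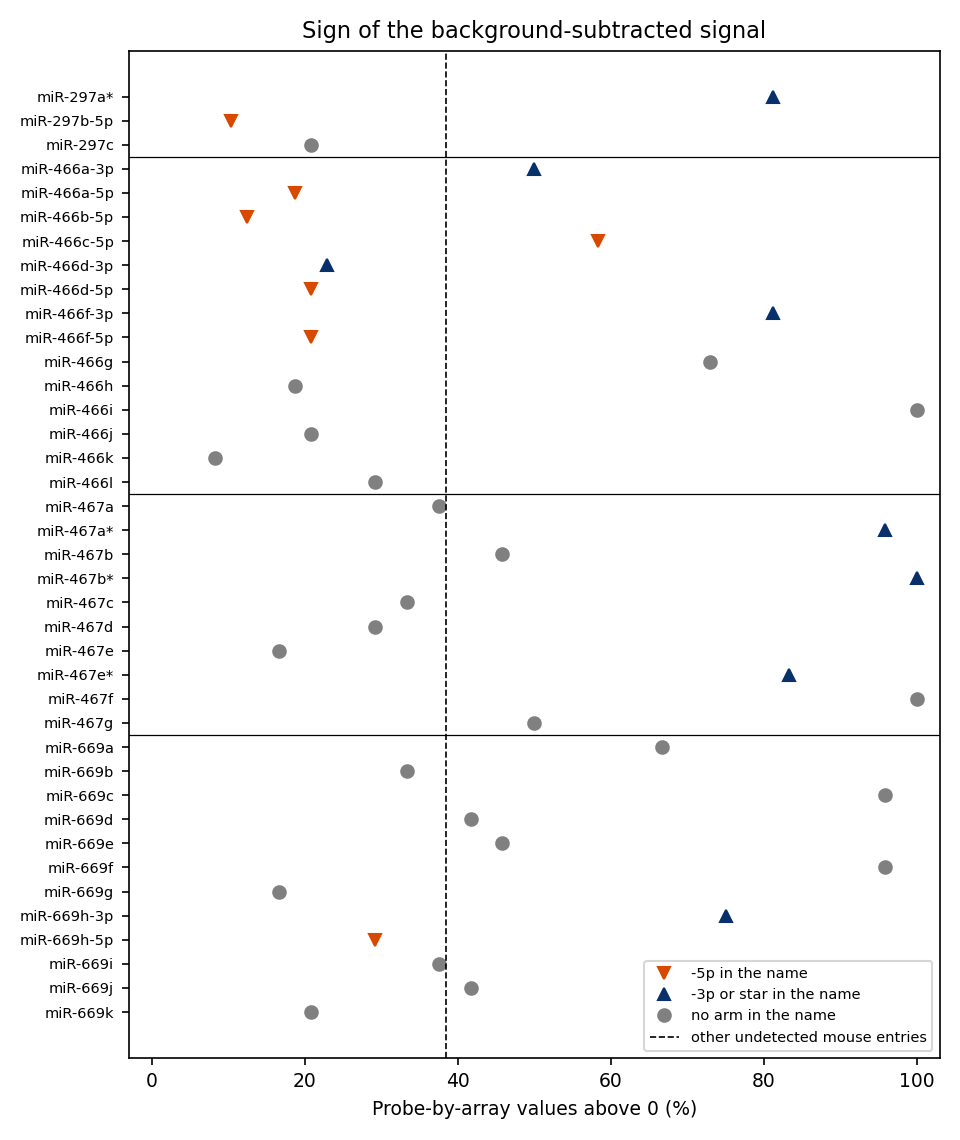
Share of probe-by-array mean signals above 0 after background subtraction (%, horizontal axis) for each of the 39 members, by family, with the arm in the name as marker and the 38.4% of undetected mouse entries outside the families as a dashed line. Members named -3p or with a star lie mostly to the right, up to 100%, and those named -5p mostly to the left. The negative controls had medians above 0 on every array.

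Nearly all values of these miRNAs lay too close to background for a comparison of times. Arrays were scaled to a common 75th percentile over 157 probes. Values under a floor of 22.2 units were set to it because they have no order. The floor was the lowest signal, as a median over arrays, among probes with more than 50% of their spots well above background. This rule is not the detection call, which miR-467f passed on 6 arrays at signals under the floor. Of 468 member values 3 exceeded the floor: miR-466d-5p at ZT50 (50.5) and miR-467b* at ZT50 (31.4) and ZT62 (24.5). No value of miR-467f did, the highest being 17.6 at ZT42.

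Light against dark, a 24-h rhythm and any difference between the 6 clock times were tested with limma over the 139 entries detected on at least 6 arrays, with Benjamini-Hochberg adjustment. At an adjusted p under 0.05 the tests called 0 of 139 entries each (0%), while 11, 5 and 6 entries had an unadjusted p under 0.05. The smallest adjusted limma p values were 0.355, 0.849 and 0.648. miR-467f was the only member among the 139, and it lay at the floor on all 12 arrays, so these fits held no information on it. With the floor set to 50% of its height, which left miR-467f at the floor on 1 array, its dark mean minus light mean was -0.09 on the log2 scale, with an adjusted limma p of 0.850, and the adjusted p was 0.993 for the rhythm and 0.813 for the clock times.

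On the linear scaled signal, without the floor, the light arrays of miR-467f averaged 15.3 ± 0.588 (SD, n = 6) and its dark arrays 14.3 ± 3.05 (SD, n = 6). All of these values lay under the floor, where values have no order. The differences and p-values given next describe spread near background and cannot decide between light and dark. The difference of dark minus light was -1.00 units (two-sided exact permutation test over 924 splits, p = 0.489), smaller than the spread between dark arrays. On slide 1 alone it was 0.083 (exact p = 0.893), and on slide 2 the single dark array, ZT62, minus the mean of the 3 light arrays, 15.4, gave -5.93. The value with the slide as a block was -1.63 (exact permutation within slides, p = 0.237). Without ZT62 the difference was -0.04. With the mean of both probes it was 0.629 (exact p = 0.437), so its direction also rested on the choice of probe.

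The light arrays of miR-467b* averaged 10.7 ± 10.5 (SD, n = 6) and its dark arrays 12.2 ± 7.47 (SD, n = 6). Only ZT50 and ZT62 exceeded the floor, so these comparisons cannot decide between light and dark either. The difference of dark minus light was 1.47 units (two-sided exact permutation test, p = 0.758), well within the spread of both groups. With the mean over all 4 probes it was 2.63 (exact p = 0.435). Without ZT50 it was 5.61 (exact p = 0.136) and without ZT62 it was -0.99 (exact p = 0.911). On slide 1 alone it was 4.81 (exact p = 0.179, 3 light and 5 dark arrays), and on slide 2 the single dark array lay 7.98 above the light mean. As a block, the slide gave 5.71 (exact permutation within slides, p = 0.219).

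Other detection rules, applied at 6 or more arrays, changed the count of members by no more than 2. With at least 1 spot of any probe well above background, 2 members passed (miR-467f and miR-467b*) and 22.7% of mouse entries. With every probe well above background in more than 50% of its spots, 0 members and 13.9% of mouse entries passed. With a ratio above 2 in place of 3, 3 members passed (miR-466f-3p, miR-467b* and miR-467f) and 27.3% of mouse entries, and with a ratio above 4 it was 0 members and 20.1%.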

How the data were processed

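Spot intensities and their flags were used as deposited. Per the file headers the authors' scanner software was Agilent Feature Extraction 10.7.3.1; version 9.5.3.1 stands in the submitters' processing notes. The deposited intensities are background-subtracted within an array and not scaled between arrays. Detection flags, total signals and errors (other values in the files) were also taken as deposited. The series value table held the same intensities (difference 0).

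Control and outlier-flagged spots were left out and spots of a probe averaged. Arrays were scaled to the 75th percentile over 157 probes with more than 50% of their spots well above background on every array. A floor of 22.2 was set and log2 taken, and an entry was represented by its brightest probe. Limma 3.58.1 in R 4.3.3 (lmFit, eBayes with trend) gave the tests. They were also run on simulated data with normal noise and no floor, which does not give their power for values near the floor. Exact permutation tests served single members. Normexp used the median spot signal, the column available. No genome build is given in the sources used here; mature sequences and coordinates are RefSeq's (GRCm38.p6), matched by name for 206 of 611 mouse entries, and placement relative to Sfmbt2 uses RefSeq gene spans of that build.

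The members and lists were chosen with earlier results of these data known. Members detected on at least 6 arrays were to be described by array, those on 1 to 5 by name and number of arrays; values of the latter go beyond that rule. Alternatives covered the scaling, background, floor, probe choice, entries tested, slide and each array left out. The number of arrays and probes limits the precision. Python 3.11.15 (pandas 2.3.3, numpy 2.4.6) and matplotlib 3.10.9 served for counts and plots.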

Additional observations from a re-analysis of the deposited data

Results flagged for a closer look

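In groups of 6 arrays, 4 values lay far from the others of their group, out of 16 groups checked. The members checked were the 5 detected on at least 1 array. miR-466d-5p was detected only at ZT50 and miR-467d only at ZT42, so the same high values brought them into the check. The number of flagged values is therefore not set against chance. The scaled signal of miR-467b* at ZT50 was 31.4 against 11.5 for the next light array. The scaled signal of miR-466d-5p at ZT50 was 50.5 against 5.67 for the next light array. Its value at ZT18 was 4.09, where the next dark array had -2.75; both of these are under the floor of 22.2. The scaled signal of miR-467d at ZT42 was 15.5 against 0.981 for the next dark array, also under the floor.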

How the results depend on the processing

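The count of members detected on at least 6 arrays, 1, became 5 at 1 or more arrays, 0 at all 12 arrays, 0 with every probe well above background, 2 with any spot well above background, and, chosen after seeing the data, 3 at a ratio above 2 and 0 above 4. Leaving out each array gave 0 to 1, the 0 arising without ZT18, ZT22, ZT26, ZT30, ZT38 or ZT42, since miR-467f was detected on exactly 6 arrays. Entries called by limma, 0 in each test, became 1 for the rhythm and 1 for the clock times with normexp (miR-451 in both), and 3 for the clock times on slide 1 alone. Leaving out each array gave 0 to 2 for light against dark (2 without ZT30), 0 to 0 for the rhythm and 0 to 8 for the clock times (8 without ZT26, 2 without ZT46, 1 without ZT54 and 1 without ZT58). The 8 called without ZT26 included a herpesvirus entry, mcmv-miR-m22-1. Of the 139 tested entries, 4 were herpesvirus entries and 6 lay at the floor on all 12 arrays. The cause of these changed counts was not tested. No call of miR-467f appeared under any of the 22 alternatives in which it was tested, most of which left it at the floor. The difference of dark minus light in its linear signal changed sign with the mean over probes (0.629) and on slide 1 alone (0.083), and ranged from -1.67 to -0.04 when each array was left out; that of miR-467b* ranged from -0.99 to 5.61 and changed sign without ZT62 (-0.99). The other alternatives kept 0 calls in the 3 tests. Light and dark arrays were not paired, since each time had its own pool of livers and the labels link no light pool to a dark one. Signals this close to background limit every statement about time of day: a change in a member under the floor would not have been detectable.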
